A study of Rattus norvegicus with 6 samples.

Results

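Astrocyte marker genes were read in cultures of rat hippocampal neurons in which the transcriptional coactivator Ncoa3 had been silenced. The set holds 10 listed genes: Gfap, Vim, Sox9, S100b, Slc1a2, Slc1a3, Aldoc, Aqp4, Gja1 and Glul. Of these, 9 were found by platform gene symbol, each on 1 probe set, among the 18166 genes measured, and Glul was not analysed here. The hippocampi came from rat embryos at day 18, and all cultures were grown with 10 µM FUDR (5-fluorodeoxyuridine), a nucleoside analogue used in such cultures against dividing cells, which include glia. Adeno-associated virus was added after 4 days in culture, at 1800000 IFU (infectious units) in each ml, and made the cells express a short hairpin RNA (shRNA), either a control one or one that targets Ncoa3. Total RNA was isolated after 14 days in culture. Each of 3 experiments gave 1 array per shRNA, so there were 3 control shRNA and 3 Ncoa3 shRNA arrays, and both groups shared the virus type, the FUDR and the times. The labels name 1 shRNA against Ncoa3 and describe the cells as neurons.

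Astrocytes surround synapses and blood vessels. They clear glutamate from the synaptic cleft, take up potassium and water, and are coupled to each other through gap junctions. In cultures of neurons they are the main other cell type of neural origin, they mature over the days in which neurons form synapses, and the share of them depends on how far their division is held back. Gfap and Vim encode the intermediate filaments of astrocytes, Sox9 a transcription factor of the glial lineage and S100b a calcium-binding protein. Slc1a2 and Slc1a3 encode the glutamate transporters GLT-1 and GLAST, Aldoc a brain aldolase of glycolysis, Aqp4 the water channel of astrocyte endfeet and Gja1 the gap junction protein connexin 43. Vim is also made by fibroblasts and neural progenitors.

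Signals are on a log2 scale, so a difference of 1 is a doubling, and unless called deposited they were quantile-normalized, which gives all 6 arrays the same distribution. The reason is that the deposited signals of the groups differ as a whole. Array medians lay apart by -0.28 (Ncoa3 shRNA less control). Any 2 arrays of the same group shared 8680 to 13979 values exactly among 36685 probe sets, and any 2 arrays from different groups at most 2. Any difference in processing between the groups and the effect of the shRNA therefore cannot be told apart. Ncoa3 itself fell with Ncoa3 shRNA, with a difference of -0.97 ± 0.142 (SE, 3 arrays a group), at an adjusted p of 0.00747 in limma's test. The neuronal cytoskeleton genes Map2 and Tubb3 stood at 12.35 ± 0.0556 and 12.68 ± 0.0255 with control shRNA, and the neuronal nuclear marker Rbfox3 at 11.88 ± 0.0794 (SD, n = 3 each). On the same arrays Vim stood at 12.60 ± 0.0581 and Aldoc at 12.40 ± 0.509. Such levels do not show the share of neurons. All 15 measured neuron markers and 8 of the 9 astrocyte genes, all but Sox9, gave more signal than the median gene. A signal also depends on the probes, so levels of different genes are not ranked here.

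None of the 9 astrocyte genes passed limma's test between the shRNA groups, while 7 passed its test between the 3 experiments (18.8% of all genes did). In the first test 1 of the 9 had an unadjusted p under 0.05, as did 6111 of the 18166 genes. These tests used different models: the first had no term for the experiment, and the second had a term for the group. With the experiment as a block in the first, 1 astrocyte gene (Slc1a2) passed, as did 39.3% of all genes. There 4 of the 9 had an unadjusted p under 0.05, as did 9388 of the 18166 genes. Fitted over both shRNA groups, Aldoc was 1.98-fold and Aqp4 1.83-fold higher in experiment 3 than in experiment 1, and Gfap, S100b, Slc1a3, Gja1 and Slc1a2 were 1.34-fold to 1.47-fold higher. These calls held with quantile-normalized values and not with the deposited ones, as given below. In RNA from whole cultures, a different number of astrocytes, a different amount of RNA per astrocyte and a difference in other cells cannot be told apart.

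**Figure D1:**
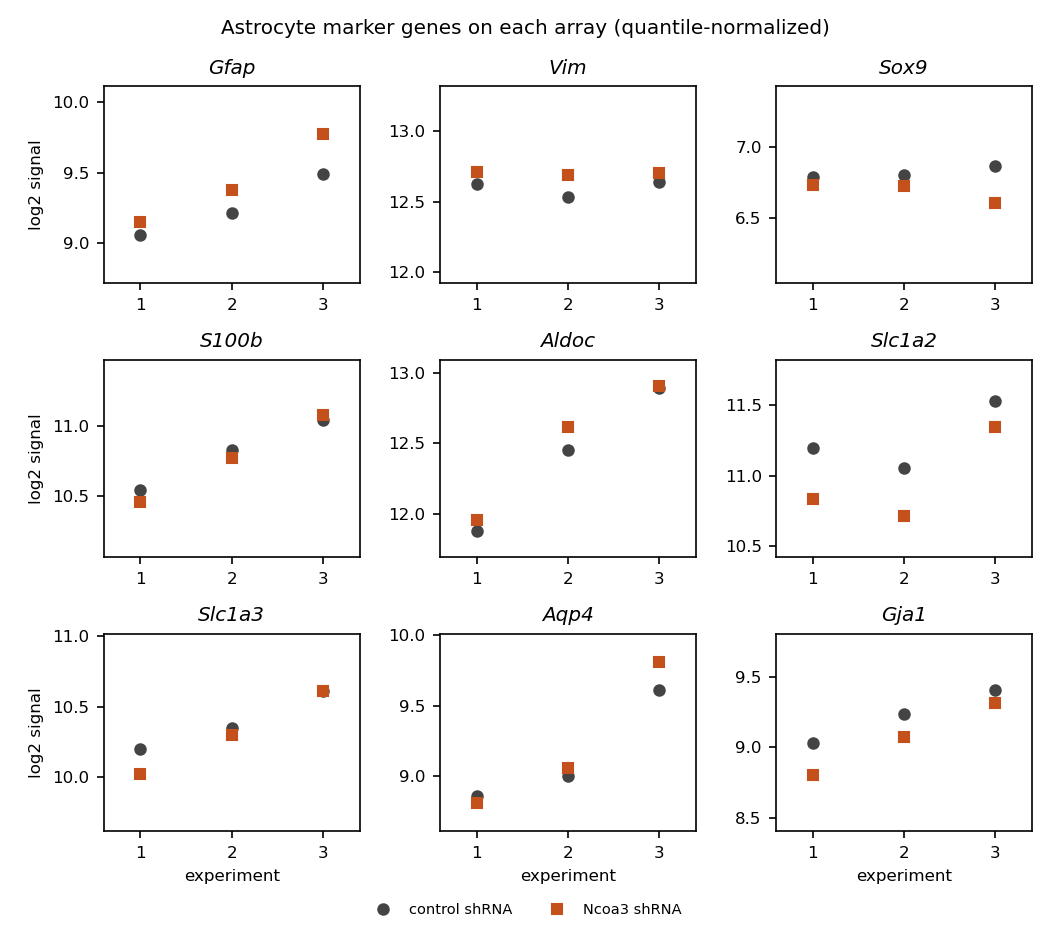
Quantile-normalized log2 signal of each of the 9 astrocyte genes on each array, by experiment (x axis), with circles for control shRNA and squares for Ncoa3 shRNA; every panel spans the same 1.4 log2 units. Aldoc runs from 11.87 to 12.90, with both arrays of experiment 3 above all others, whereas Vim stays between 12.53 and 12.71.

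Among the genes of astrocyte identity and cytoskeleton, Gfap (probe set 17661998) stood at 9.06, 9.22 and 9.49 on the control arrays and 9.15, 9.38 and 9.78 on the Ncoa3 shRNA arrays in experiments 1, 2 and 3. Both arrays of experiment 3 were above the other 4, and the shRNA groups overlapped. The difference between experiments 3 and 1, fitted over both groups, was 0.53 ± 0.0647 (SE), and limma's F test over the experiments gave an adjusted p of 0.0484. S100b (17757762) stood at 10.55, 10.83 and 11.04 on the control arrays and 10.46, 10.77 and 11.07 on the Ncoa3 shRNA arrays. Its experiments did not overlap each other, and experiment 3 exceeded experiment 1 by 0.56 ± 0.0504 (adjusted p = 0.0413). Vim (17717148), which carries the other filament protein, stood at 12.63, 12.53 and 12.64 on the control arrays and 12.71, 12.69 and 12.70 on the Ncoa3 shRNA arrays, so the Ncoa3 shRNA arrays were all above the control arrays and the experiments overlapped (experiment 3 minus 1, 0.00 ± 0.0352; adjusted p = 0.402). Sox9 (17652363), the gene of the lineage factor, stood at 6.79, 6.80 and 6.87 on the control arrays and 6.73, 6.73 and 6.60 on the Ncoa3 shRNA arrays. Its Ncoa3 shRNA arrays all lay below the control arrays, and its experiments differed by -0.03 ± 0.0650 (adjusted p = 0.908). Deposited values of Sox9 were the same in experiments 1 and 2 within each group, as were those of Vim with Ncoa3 shRNA, so for these 2 genes the spread between arrays is partly that of identical values.

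Of the glutamate transporter genes, Slc1a3 (GLAST; probe set 17745749) stood at 10.20, 10.35 and 10.61 on the control arrays and 10.02, 10.30 and 10.61 on the Ncoa3 shRNA arrays. Experiment 3 was the highest in both groups and exceeded experiment 1 by 0.50 ± 0.0629 (SE; limma's adjusted p = 0.0484). Slc1a2 (GLT-1; 17764304) stood at 11.20, 11.05 and 11.53 on the control arrays and 10.84, 10.71 and 11.35 on the Ncoa3 shRNA arrays. Here experiment 2, not experiment 1, was the lowest in both groups, at -0.13 ± 0.0625 from experiment 1, and experiment 3 exceeded experiment 1 by 0.42 ± 0.0625 and experiment 2 by 0.56 ± 0.0625 (adjusted p = 0.0483). In each experiment the Ncoa3 shRNA array had less Slc1a2 signal than its control array.

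Aldoc (17658785), the glycolytic enzyme gene, differed most between the experiments among the 9 genes, at 11.87, 12.45 and 12.89 on the control arrays and 11.96, 12.62 and 12.90 on the Ncoa3 shRNA arrays. Experiments 2 and 3 exceeded experiment 1 by 0.62 ± 0.0473 and 0.98 ± 0.0473 (SE; limma's adjusted p = 0.0287), and the arrays of different experiments did not overlap. Aqp4 (17724939), the endfoot water channel gene, stood at 8.86, 9.00 and 9.61 on the control arrays and 8.81, 9.06 and 9.81 on the Ncoa3 shRNA arrays. Most of its difference lay between experiment 3 and the others, with 0.88 ± 0.0768 above experiment 1 and 0.68 ± 0.0768 above experiment 2 (adjusted p = 0.0393). Gja1 (17755182), the connexin 43 gene, stood at 9.03, 9.24 and 9.41 on the control arrays and 8.80, 9.08 and 9.31 on the Ncoa3 shRNA arrays. The Ncoa3 shRNA array lay below its control array in each experiment though the groups overlapped, and experiment 3 exceeded experiment 1 by 0.44 ± 0.0526 (adjusted p = 0.0484).

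**Figure D2:**
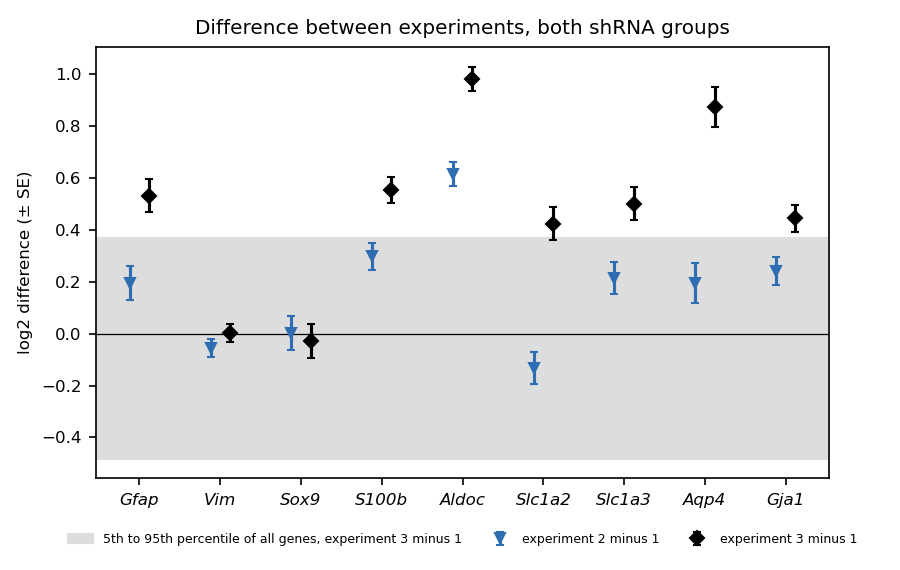
Log2 difference of experiments 2 (triangles) and 3 (diamonds) from experiment 1 for each astrocyte gene, fitted over both shRNA groups, with SE; the grey band spans the 5th to 95th percentile of all 18166 genes for experiment 3 minus 1, -0.48 to 0.37. Of the 9 genes, 7 lie above the band in experiment 3, and Vim and Sox9 lie near 0. For the 5654 genes with no deposited value shared within a group, the same percentiles were wider apart, at -0.67 and 0.65. Of the 7, only Aldoc and Aqp4 lie above that range, and Gfap, S100b, Slc1a3, Gja1 and Slc1a2 lie within it.

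All 7 astrocyte genes that passed between the experiments (77.8% of the 9) had more signal in experiment 3 than in experiment 1, a direction in which 4.07% of all genes passed. The median difference between experiments 3 and 1 was 0.50 for the astrocyte genes and -0.07 for all genes. In 6 of the 9 (Gfap, S100b, Slc1a3, Aldoc, Aqp4 and Gja1), the signal had the order experiment 1, 2, 3 from low to high in both shRNA groups, which held for 5.39% of all genes. Many genes elsewhere on the array passed through shared values: of 1950 genes whose deposited value was constant within both groups, 44.5% passed, each of them lower in experiment 3, and there the difference between experiments came from the normalization alone. None of the 7 astrocyte genes that passed had a shared value within a group, and of the 5654 genes without one, 26.9% passed and 8.97% passed as higher.

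The adjusted p of the 7 genes lay between 0.0287 and 0.0484, near the threshold of 0.05, and which of them passed depended on the setting. With the deposited values 0 of the 9 astrocyte genes passed limma's F test, where 1.91% of all genes passed. The adjusted p ran from 0.0597 for Aldoc to 0.149 for Gfap among the 7. All 7 had an unadjusted p under 0.05 there, as did 4700 of the 18166 genes. After cyclic loess, another normalization, 1 astrocyte gene (Aldoc) passed, as did 1.32% of all genes and 0.875% in that direction. After each array was centred on its median, 4 of the 7 (Aldoc, Aqp4, S100b and Slc1a2) passed as higher and Vim passed as lower, at -0.15, where 55.5% of all genes passed, 4.67% as higher and 50.8% as lower. With either array of experiment 1 or 2 left out no gene of the array passed, though 4355 to 6092 genes, 6 or 7 of the 9 astrocyte genes among them, had an unadjusted p under 0.05. Without the control or the Ncoa3 shRNA array of experiment 3, Aldoc and Aqp4 passed, as 2 of 1294 and of 1368 of the 18166 genes. Over these settings the difference between experiments 3 and 1 ran from 0.83 to 1.04 for Aldoc, 0.63 to 0.98 for Aqp4, 0.28 to 0.61 for Gfap, 0.33 to 0.61 for S100b, 0.26 to 0.59 for Slc1a3, 0.21 to 0.51 for Slc1a2 and 0.20 to 0.50 for Gja1, and none of these changed sign.

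Because 7 of the genes passed with experiment 3 higher, the 250 bases before their listed starts were read from RefSeq (assembly GRCr8), where 8 of the 9 measured genes, all but Sox9, matched with 12 starts. Those of Gfap, at chr10:88361662-88361911 (minus strand), S100b, at chr20:12381082-12381331 (minus strand), Aldoc, at chr10:63715294-63715543 (plus strand), and Gja1, at chr20:36302314-36302563 (plus strand), are shown for the defining filament gene, a gene with a pair of NFI half-sites, the gene with the widest difference and the only gene with an AP-1 match. Capitals mark the matches described next.
Gfap: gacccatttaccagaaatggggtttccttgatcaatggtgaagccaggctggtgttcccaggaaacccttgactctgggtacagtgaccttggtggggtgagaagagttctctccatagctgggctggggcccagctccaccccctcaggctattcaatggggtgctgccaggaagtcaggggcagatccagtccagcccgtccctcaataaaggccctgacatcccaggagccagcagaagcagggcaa
S100b: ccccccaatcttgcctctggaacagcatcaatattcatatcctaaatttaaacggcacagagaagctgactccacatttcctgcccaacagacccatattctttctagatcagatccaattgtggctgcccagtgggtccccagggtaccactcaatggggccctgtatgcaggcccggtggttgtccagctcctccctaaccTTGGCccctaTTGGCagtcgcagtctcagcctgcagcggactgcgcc
Aldoc: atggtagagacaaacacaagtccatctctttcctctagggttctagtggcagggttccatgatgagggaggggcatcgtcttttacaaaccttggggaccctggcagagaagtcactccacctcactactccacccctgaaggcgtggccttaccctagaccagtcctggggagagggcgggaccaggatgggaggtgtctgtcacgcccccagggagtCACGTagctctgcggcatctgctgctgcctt
Gja1: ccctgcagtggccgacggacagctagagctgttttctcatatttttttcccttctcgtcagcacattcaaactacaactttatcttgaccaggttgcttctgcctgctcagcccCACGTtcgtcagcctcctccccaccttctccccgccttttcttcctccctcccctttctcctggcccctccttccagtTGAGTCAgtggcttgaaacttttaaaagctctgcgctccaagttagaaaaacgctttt
On either strand, the half-site TTGGC of NFI factors, which take part in astrocyte differentiation, was found at 4 of the 8 genes (S100b, Slc1a2, Slc1a3 and Vim). That was 6 of the 12 windows of the 8 genes, against 40.3% of all 33469 such windows. The 3 windows of Slc1a3 overlap each other. The full palindromic NFI site, which holds the half-site on both strands, the STAT site TTCNNNGAA and the palindromic estrogen receptor element matched at none of the 8, and in 0.0359%, 7.67% and 0.0239% of all windows. The AP-1 site TGANTCA matched at Gja1, in 1 of the 12 windows, and in 6.34% of all windows. The core of the hypoxia response element, ACGTG, which reads CACGT on the other strand, was searched after the values were seen. It matched at 4 genes (Aldoc, Gja1, Slc1a2 and Slc1a3), in 6 of the 12 windows, and in 16.6% of all windows. These are matches of letters in short windows and describe no binding. The AP-1 match and the hypoxia core of Gja1 do not overlap.

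Between the shRNA groups, 0 of the 9 astrocyte genes passed limma's test, where 19.5% of all genes passed (10.5% higher and 9.04% lower with Ncoa3 shRNA). Vim, 1 of the 9, had an unadjusted p under 0.05, as did 6111 of the 18166 genes. Of the 5654 genes without a shared value, 6.26% passed. The differences (Ncoa3 shRNA minus control) were above 0 for 4 genes and below 0 for 5, with a median of -0.04 against 0.01 for all genes. With the deposited values Gfap, Aldoc and Aqp4 also lay below 0 and Vim at 0.00, and the median was -0.24 against -0.25. Gfap stood at 9.26 ± 0.221 and 9.43 ± 0.318 (SD, n = 3 each), a difference of 0.18 ± 0.188 (SE) with a 95% interval of -0.28 to 0.64. The interval was -0.50 to 0.42 for S100b, -0.50 to 0.35 for Slc1a3, -0.71 to 0.89 for Aldoc and -0.69 to 0.82 for Aqp4. This fit, which leaves out the experiments, did not resolve differences of these sizes in either direction. Aldoc and Aqp4, which differed most between experiments, had the widest intervals of the 9 in it. With the experiment as a block the intervals were narrower. They were 0.03 to 0.33 for Gfap, -0.16 to 0.08 for S100b and -0.22 to 0.08 for Slc1a3. For Aldoc the blocked interval was -0.02 to 0.20 and for Aqp4 -0.11 to 0.25. None of these genes passed in the blocked fit after adjustment.

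Slc1a2 was the one gene whose call depended on comparing the arrays within their experiments. Its mean was 11.26 ± 0.246 on the control arrays and 10.97 ± 0.338 on those of the Ncoa3 shRNA group (SD, n = 3 each), and the difference was -0.29 ± 0.199 (SE) with limma's adjusted p of 0.359. By experiment it was -0.36, -0.34 and -0.18. With the experiment as a block the same difference had an SE of 0.0510 and passed (adjusted p = 0.0235), as did 39.3% of all genes, 18.6% as lower, and 23.9% of genes without a shared value. It was the 1 astrocyte gene of 9 to pass there. Gja1 stood at -0.16 ± 0.159 (SE) (adjusted p = 0.531, and 0.0567 with the block), and Gfap, on the other side of 0, had a blocked adjusted p of 0.0705. The transporter gene Slc1a3 stood at -0.07 ± 0.176 (SE) (adjusted p = 0.814, and 0.314 with the block).

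**Figure D3:**
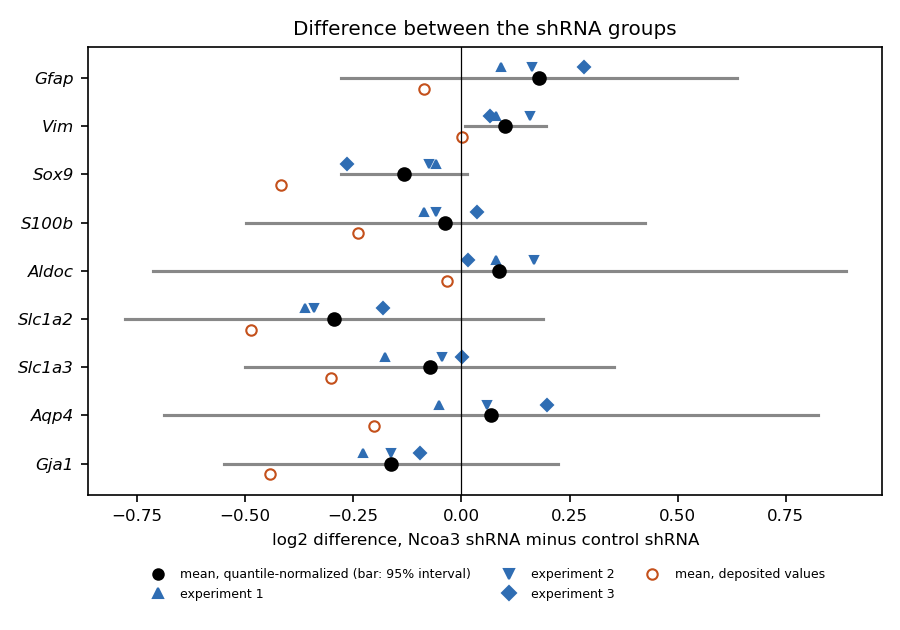
Log2 difference between Ncoa3 shRNA and control shRNA for each astrocyte gene: filled circles and bars give the quantile-normalized mean and its 95% interval from limma, blue symbols the 3 experiments, open circles the mean of the deposited values. Slc1a2 lies below 0 in every experiment, and the deposited means of all genes lie to the left of the normalized ones.

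Vim and Sox9 had groups that did not overlap, on opposite sides. Non-overlap with Ncoa3 shRNA higher was seen for 21.5% of all genes and with it lower for 19%. Vim differed by 0.10 ± 0.0382 (SE), with limma's adjusted p of 0.12, and by 0.00 in the deposited values. Sox9 differed by -0.13 ± 0.0597 (SE) (adjusted p = 0.18), with -0.06, -0.07 and -0.26 by experiment. In the deposited values Sox9 differed by -0.42 (adjusted p = 0.00936), as the 1 astrocyte gene to pass, where 47.2% of all genes passed, 43.3% as lower, and the median of all genes was -0.25. Deposited values with the block gave 5 astrocyte genes as lower (60.2% of all genes passed, 55.9% as lower): Slc1a2 at -0.49, Gja1 at -0.44, Sox9, Slc1a3 at -0.30 and S100b at -0.24, of which S100b lies near that median. Without experiment 3, Slc1a2 (-0.35; adjusted p = 0.0398) and Sox9 (-0.07; 0.0248) passed in the quantile-normalized values, as did 8354 genes in all.

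Other genes typical of astrocytes passed in both directions in the quantile-normalized values. Of 42 measured further astrocyte genes, 7 (16.7%) passed the test between experiments, 4 with experiment 3 above experiment 1 and 3 below, a share near the 18.8% of all genes (4.07% higher and 14.7% lower), and their median difference was 0.05. Slc7a11, the cystine-glutamate exchanger, at 0.74 ± 0.0983, Clu (clusterin), at 0.46 ± 0.0388, and Slc4a4, a bicarbonate cotransporter, at 0.43 ± 0.0449, were higher in experiment 3 (SE; limma's adjusted p = 0.0414, 0.0395 and 0.0413). The 3 lower genes, Id3, Gjb6 and Slc39a12, differed by -0.16, -0.14 and -0.14, and each shared a deposited value between at least 2 arrays of both groups. In the deposited values none of the 3 was lower in experiment 3 than in experiment 1. Id3 was constant within both groups. Gjb6 was 6.21 and 6.23 in experiments 1 and 3 with Ncoa3 shRNA, and Slc39a12 6.52 and 6.54 with control shRNA, each constant in the other group. Their lower direction thus came from the normalization. Of the 7 that passed, 3 had no shared deposited value, and these were all higher in experiment 3. The lipoprotein gene Apoe stood at 0.72 ± 0.154 (adjusted p = 0.0769), the potassium channel gene Kcnj10 at 0.18 ± 0.0786 (0.272), Sparcl1, which encodes a secreted synaptogenic protein, at 0.09 ± 0.0451 (0.343), and Fabp7, a fatty acid binding protein of young astroglia, at 0.06 ± 0.0842 (0.344). Aldh1l1 was not analysed here. Between the shRNA groups 3 of the 42 rose and 1 fell, where 10.5% of all genes rose and 9.04% fell: Cbs by 0.27, Bcan by 0.25 and Fgfr3 by 0.29 (adjusted p = 0.0259, 0.0336 and 0.041), and Id3 at -0.27 (0.0492). Cbs encodes an enzyme of cysteine synthesis, Bcan the matrix protein brevican, Fgfr3 a growth factor receptor and Id3 an inhibitor of differentiation. All 4 had a constant deposited value in at least 1 group, which makes their spread small. In the deposited values Cbs stood at -0.01, Bcan at -0.03 and Fgfr3 at 0.01 and did not pass. There 0 of the 42 were higher and 15 lower, where 3.97% of all genes were higher and 43.3% lower. The blocked fit called 11 higher and 5 lower, where 20.8% of all genes were higher and 18.6% lower.

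Of 21 measured genes of glutamate, glycogen and lactate metabolism, 5 (23.8%, against 18.8% of all genes) passed between the experiments, 4 of them higher in experiment 3, with a list median of 0.00. The glucose transporter gene Slc2a1 differed by 0.91 ± 0.0482 (SE; limma's adjusted p = 0.029), and the monocarboxylate transporter genes Slc16a7 and Slc16a3, which carry lactate, by 0.59 ± 0.0860 (0.0369) and 1.24 ± 0.156 (0.0484). Slc2a1 stood at 9.63, 9.98 and 10.59 on the control arrays and 9.84, 10.17 and 10.70 on the Ncoa3 shRNA arrays, with the 3 experiments apart as for Aldoc. Of 27 reactive astrocyte genes 5 passed (18.5%), all lower in experiment 3. All 5 had constant deposited values within both groups, so these differences came from the normalization alone. Of 29 genes of astrocyte specification signalling 1 was higher and 4 lower, of 15 junction and endfoot partners 2 (13.3%) were lower and of 27 paralogues of the markers 5 (18.5%) were lower, shares near those of all genes, and 2, 1 and 1 of the genes that passed in these lists had no shared deposited value.

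Between the shRNA groups, 2 of the 27 reactive genes passed as higher, Emp1 at 1.14 and Cxcl10 at 0.51, and 1 as lower (Gbp2, -0.32, with a constant deposited value in each group). Cxcl10 had a constant deposited value on the control arrays, and its deposited difference was 0.23 (limma's adjusted p = 0.029). In the deposited values 1 of the 27 was higher and 15 lower, and Emp1 did not pass (limma's adjusted p = 0.0728); the blocked fit called 5 higher and 6 lower. Of the 29 specification genes 5 were lower, among them the BMP receptor gene Bmpr1b (-0.45, again constant within each group), and none higher, against 14 lower and 0 higher in the deposited values. Of the 21 metabolism genes 2 were higher, of 15 junction and endfoot partners 1 was higher, and of 27 paralogues 2 were higher and 2 lower. The same shares over all genes were 10.5% higher and 9.04% lower. They were 3.97% higher and 43.3% lower in the deposited values, and 20.8% higher and 18.6% lower in the blocked fit.

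**Figure D4:**
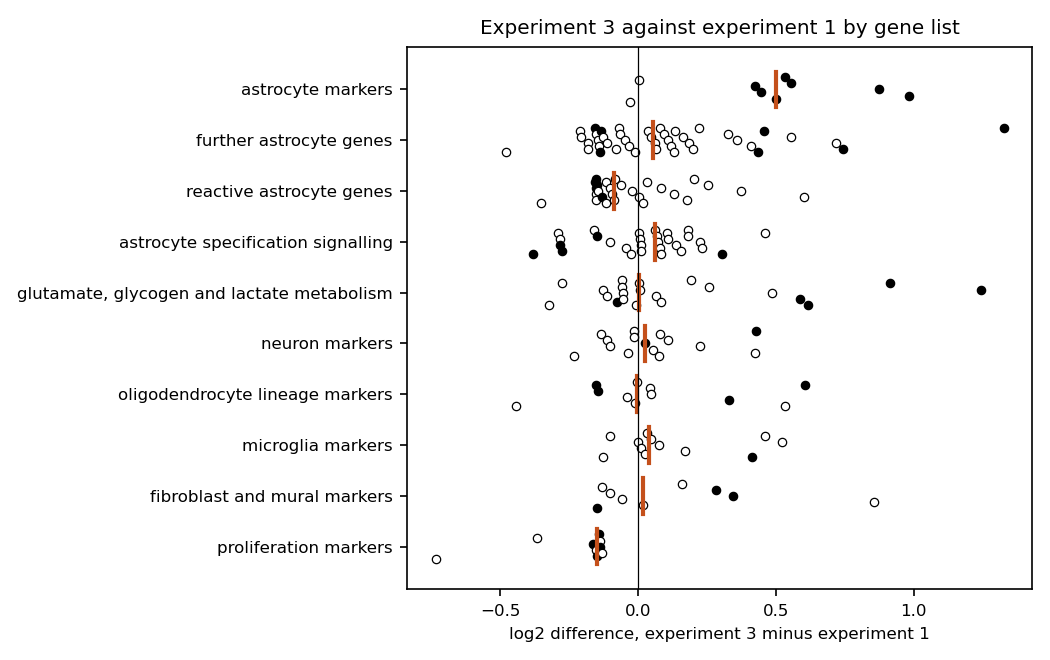
Log2 difference between experiments 3 and 1 of every measured gene in 10 lists, with filled circles for genes past limma's F test over experiments and an orange bar at each list's median. The astrocyte markers have the highest median, 0.50, and the other lists have medians between -0.15 and 0.06.

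Markers of other cells were measured beside the astrocyte genes. The summed linear signal of the 9 astrocyte genes was 16735, 18584 and 22896 on the control arrays of experiments 1, 2 and 3, and 16509, 19428 and 23185 on the Ncoa3 shRNA arrays. Aldoc gave most of this difference: without it the sum was 12980, 12998 and 15306 on the control arrays and 12539, 13154 and 15516 on the others. That of the 15 neuron markers was 91775, 96072 and 97230 with control shRNA and 91478, 93666 and 97388 with Ncoa3 shRNA, and 2 of the 15 (Eno2, at 0.43 ± 0.0425 between experiments 3 and 1, and Dcx, at 0.03 ± 0.0437 with experiment 2 the lowest) passed the test between experiments. The 12 microglia markers summed to 1093, 1111 and 1135 with control shRNA and to 1185, 1231 and 1381 with Ncoa3 shRNA, the 9 fibroblast and mural markers to 2721, 3022 and 3309 and to 3685, 3926 and 4414, and the 11 oligodendrocyte lineage markers to 2731, 2811 and 2940 and to 2982, 3344 and 3235. The 9 proliferation markers summed to 2241, 2166 and 1718 and to 2170, 1949 and 1791. Between the experiments 1 of 12 microglia markers, 3 of 9 fibroblast and mural markers, 4 of 11 oligodendrocyte markers and 4 of 9 proliferation markers passed, against 18.8% of all genes. Of these, 1 oligodendrocyte marker and none in the other 3 lists had no shared deposited value, and the 4 proliferation markers were all lower in experiment 3. Between the shRNA groups, where 10.5% of all genes rose and 9.04% fell, 3 of the 12 microglia markers, among them Cx3cr1 at 0.99 ± 0.199 (SE) (limma's adjusted p = 0.0205), rose and 1 fell, 3 of the 11 oligodendrocyte markers rose and 1 fell, 3 of 9 fibroblast and mural markers rose, 1 of 9 proliferation markers rose and 1 fell, and 0 of the 15 neuron markers passed, with 1 at an unadjusted p under 0.05. In the deposited values 1 microglia marker was higher and 3 lower, and 2 oligodendrocyte markers were higher and 3 lower. Of the fibroblast and mural markers 1 was higher and 4 lower there, where 3.97% of all genes were higher and 43.3% lower. None of the 12 microglia markers was brighter than the median gene. Arrays of a group shared a deposited value for 11 of these 12, for 7 of the 11 oligodendrocyte markers and for all 9 fibroblast and mural markers. The part of these cells in the results on astrocyte genes was not tested.

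Genes with the pattern of Gfap were sought among the 9082 other genes brighter than the median gene. Likeness was the root mean square difference from Gfap over the 6 arrays, after each gene was centred on its own mean. The nearest were Cyp4f6 at 0.0516 log2 units, Plpp3 at 0.0576, Rasgrp1 at 0.0635, Egr1 at 0.0651 and Nptx1 at 0.0659, where the median of the candidates was 0.300. Of the astrocyte genes S100b came nearest, at 0.117 and place 60, followed by Slc1a3 at 0.129 and place 108, then Aqp4 at place 364 and Gja1 at 478. Slc1a2, at 0.274, and Sox9, at 0.293, were the farthest of the other 8.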

How the data were processed

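RNA of 6 cultures was measured on single-colour Affymetrix arrays. Per the submitters' processing notes the authors used Affymetrix Expression Console, and what they deposited are log2 signals by probe set; the sources used here do not say how these were summarised and normalized or on which genome build. Groups and experiment numbers came from the labels. Of 36685 probe sets, 18511 have 1 gene symbol in the platform annotation, 575 have several and the rest are unnamed here; the brightest probe set per gene (291 genes had more than 1) left 18166 genes. After quantile normalization, limma 3.58.1 in R 4.3.3 (lmFit, eBayes with a trend) tested the groups without a block, two-sided, and the experiments by a moderated F test with the group as a term, each with Benjamini-Hochberg adjustment over all genes at 0.05. SEs and 95% intervals are limma's. Experiment numbers mark shared experiments in the labels, and deviations from group means correlated at r = 0.72, 0.55 and 0.78 within experiments, over genes, which are not independent replicates. The fits were tested on simulated data with independent noise on each array. These lacked the shared values and the correlation within experiments, so they do not show how the fits behave with them. The members and lists were chosen with earlier results of these data known. Named genes were the members, the 3 with the smallest p per direction in a list, some preset markers and 5 genes nearest to Gfap. The order of levels among members is not reported, since probe sets respond differently. Lists held the markers, further and reactive astrocyte genes, specification signalling, metabolism, junction partners, paralogues, and neuron, oligodendrocyte, microglia, endothelial, fibroblast, progenitor and proliferation markers; of 8 endothelial genes 1 rose and 1 fell between the shRNA groups and 4 passed between experiments, and of 8 progenitor genes 2 rose and 4 passed between experiments. The number of arrays limits the precision.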

Additional observations from a re-analysis of the deposited data

How the results depend on the processing

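Between the shRNA groups 3548 genes passed limma's test (53.7% of them higher), and none of the 9 astrocyte genes. With the deposited values it was 8579 (8.42% higher), with 1 astrocyte gene lower, a median of -0.24 over the 9, and Gfap at -0.087, Aldoc at -0.033 and Aqp4 at -0.20 on the other side of 0. Centred arrays gave 1868, a median of 0.044, which is that of S100b, at 0.044. Leaving out the dimmest genes (13624 tested) gave 1107, and every probe set tested gave 5938. The experiments pair the arrays. With the replicate block 7147 genes passed and 1 astrocyte gene lower (Slc1a2, -0.29), and with the block on deposited values 10932 and 5, at the same differences as without it (median -0.24). The block changed no other call on an astrocyte gene in the quantile-normalized values.

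Between the experiments 3411 genes passed (21.7% higher), 7 of them astrocyte genes. With the deposited values it was 347 (44.4% higher) and 0, with Sox9 at 0.13. Centred arrays gave 10074 (8.43% higher), 4 higher and 1 lower (Vim, -0.15), and a median of 0.26 in place of 0.50. Cyclic loess gave 240 (66.25% higher), 1 astrocyte gene and Sox9 at 0.040, and no trend 1473 (32.3% higher).

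With 1 array or 1 experiment left out, the genes that passed ran from 0 to 8354 between the shRNA groups (0 without experiment 2, with 3071 at an unadjusted p under 0.05) and, with 1 array left out, from 0 to 1368 between experiments. Astrocyte genes that passed ran from 0 to 2 in both, the latter without control or Ncoa3 shRNA replicate 3 or, for the shRNA, without experiment 3. Their median ran from -0.19 to 0.10 and from 0.42 to 0.59. Aldoc ran from -0.18 to 0.36, Aqp4 from -0.22 to 0.30, S100b from -0.19 to 0.12, Slc1a3 from -0.22 to 0.072, Gfap from 0.0093 to 0.32, Gja1 from -0.29 to -0.031, Slc1a2 from -0.48 to -0.16 and Sox9 from -0.17 to -0.067 between the shRNA groups. Between experiments Sox9 ran from -0.13 to 0.071 and Vim from -0.024 to 0.030. Leaving out single arrays between experiments was added after the data were seen. The causes were not tested. With 3 arrays a group and signals of unknown depth over background, small differences are not resolved.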
